A study of Mus musculus with 4 samples.

Results

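Cytosolic ribosomal protein genes were followed through the cell types of mouse bone in 4 single-cell libraries. The genes were chosen by their symbols alone (Rpl or Rps followed by a number, the stalk proteins Rplp0, Rplp1 and Rplp2, and Rpsa), without pseudogenes, which gave 96 of the 31053 genes in the count tables. Of these, 77 encode ribosomal proteins without being listed as paralogs (31 of the small subunit, 43 of the large subunit and 3 of the P stalk). A further 8 are paralogs of such genes, and 11 were caught by the name alone: 10 kinases of the S6 kinase families and Rps19bp1, whose product binds a ribosomal protein. These 11 held 0.153% of the UMIs of all 96 genes, so shares over the 96 are in practice shares of ribosomal proteins and their paralogs. All 96 genes were found by gene ID in GENCODE M21 on mm10, where they lie on 20 chromosomes.

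The libraries came from the tibiae and femurs of wild-type mice, 2 Ctrl mice without treatment and 2 mice after hindlimb unloading (HLU), in which the tail is suspended for 28 days so that the hind limbs bear no load. Each library is 1 mouse. Marrow was flushed out before an enzymatic digest, so the cells are those left in bone, and the sources used here differ on the age of the mice. Single cells were captured in droplets with a 3′ kit, in which each captured molecule carries a unique molecular identifier (UMI), so a UMI count reads molecules and is not divided by transcript length.

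The small and the large subunit of the cytosolic ribosome join on an mRNA to make protein, the small subunit reading the codons and the large subunit forming the peptide bonds. The acidic stalk proteins on the large subunit call in the translation factors. Ribosomal protein mRNAs are among the most abundant of a growing cell, and many of them begin with a run of pyrimidines, the terminal oligopyrimidine (TOP) motif, through which mTORC1 signalling sets their translation. Neutrophils, the most numerous white cells of bone marrow, arise from dividing granulocyte progenitors, fill their granules while immature and stop dividing as they mature.

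The windows around the annotated transcription start of 10 ribosomal protein genes are shown because the results below turn on these genes or their groups: Rps27, Rps9 and Rpl37 were the exceptions to the fall along neutrophil maturation, Rpsa and Rps4x were among the 5 genes that fell the most between immature and mature cells, Rpl36a and Rpl14 had the largest falls before that, Rplp0 and Rplp2 are stalk genes, and Rpl35 holds the searched motif more than once. Each window runs from 15 bases before the start, 5′ to 3′ on the gene's strand, to 30 bases in all (RefSeq, GRCm38.p6). Capitals mark the motif CTTTC.
Rps27, chr3:90213634-90213663, minus strand: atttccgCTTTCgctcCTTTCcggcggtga
Rps9, chr7:3704026-3704055, plus strand: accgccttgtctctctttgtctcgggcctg
Rpl37, chr15:5116598-5116627, plus strand: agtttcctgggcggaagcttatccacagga
Rpsa, chr9:120127751-120127780, plus strand: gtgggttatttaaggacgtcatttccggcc
Rps4x, chrX:102189377-102189406, minus strand: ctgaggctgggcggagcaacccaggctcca
Rpl36a, chrX:134585639-134585668, plus strand: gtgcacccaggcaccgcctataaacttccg
Rpl14, chr9:120571502-120571531, plus strand: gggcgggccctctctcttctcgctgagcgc
Rplp0, chr5:115559452-115559481, plus strand: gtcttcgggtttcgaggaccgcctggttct
Rplp2, chr7:141447636-141447665, plus strand: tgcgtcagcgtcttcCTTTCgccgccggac
Rpl35, chr2:39005117-39005146, minus strand: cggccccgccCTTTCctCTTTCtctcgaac

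Of the 96 genes, 74 were matched by symbol in the RefSeq table of promoters, 57 of them ribosomal proteins without paralogs. On the gene's strand, CTTTC stood in the windows of 16 of these 57 genes (28.1%), against 2 of 17 paralogs and genes caught by the name alone and 1286 of the 27025 genes in the table (4.76%). On the opposite strand the shares were 5.26% and 4.21%. No other motif was searched, so no overlap between motifs arises. A match in 30 bases is a description of letters around an annotated start and not a measured start of transcription. CTTTC was counted at any place in the window, so its count is not that of genes with a TOP motif. Windows with other runs of pyrimidines, such as that of Rpl14, stand as without it.

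Some facts of the libraries bear on the results. Barcodes with 1000 to 40000 UMIs and at most 10% mitochondrial UMIs were kept, 32217 in all (7340 and 7635 of the Ctrl libraries, 7757 and 9485 of the HLU libraries), from libraries of 47819046 to 99849070 UMIs, and 2098 of them were left out of the cell types as putative doublets. Pairs of libraries shared 13 to 21 cell barcodes. Cell types were named from marker genes after clustering without the 96 genes and without mitochondrial genes, and 4 clusters of 5594 barcodes stayed unnamed. None of the 96 was thus a clustering gene, although each cell was scaled to all its UMIs and doublets were scored with these genes kept in. Ribosomal protein genes under other names were not held out. Chondrocyte-like and mesenchymal stromal-like cells came mostly from the Ctrl libraries (1517 and 1322 chondrocyte-like cells against 96 and 92), so the types differ in number between the groups.

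Ribosomal protein genes gave 33769512 UMIs in the kept barcodes, and their share of all UMIs was 16.2% and 14.4% in Ctrl and 13.4% and 11.6% in HLU. Values given for 4 libraries stand in this order throughout: both Ctrl replicates, then both HLU replicates, each by number. The large subunit held 49.3% of them, the small subunit 44.8%, the 3 stalk genes 4.68% and the paralogs 1.04%. The UMIs were spread evenly over many genes, as the 10 genes with the most UMIs held 22.3% of the total. Rps29, a zinc-binding protein of the small subunit, led with 849321 UMIs (2.52% of the total). Next were Rpl41, which encodes a very short basic peptide of the large subunit, with 834286, Rps24 with 799297, Rps27a, whose product is made as a fusion to ubiquitin, with 797465, and Rpl23 with 763588. At the low end of the ribosomal proteins without paralogs, looked up after the values were seen, Rpl13a had 34356 UMIs and Rpl31 111710. Many ribosomal protein genes have near-identical processed pseudogenes, and the counting could leave out reads that fit several places, so a low count such as that of Rpl13a is uncertain as a level.

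Among the paralogs, Rpl22l1 (127369 UMIs), Rpl36al (113365) and Rps27l (80076) lay in the range of the least abundant ribosomal proteins, and the other paralogs and the genes caught by the name alone had 15587 UMIs or fewer. Rpl10l, a paralog known from the testis, had 0 UMIs in 32217 barcodes, which allows up to 0.0121 per 1000000 UMIs (3 counts over all kept UMIs, counting error only). The kinase genes Rps6kl1 and Rps6ka6 had 9 and 25 UMIs, Rpl3l, known from striated muscle, had 652, Rps6kc1 had 1150 and Rpl39l, known from the testis, had 1926. The most abundant type for Rpl39l was the chondrocyte-like type, where it reached 28.1 and 34.6 UMIs per 1000000 UMIs in Ctrl and 56.7 and 104 in HLU. In mesenchymal stromal-like cells it stood at 13.3, 13.2, 88.3 and 40.7 per 1000000 UMIs, and it averaged 0.634 per 1000000 UMIs in mature neutrophil-like cells. Rpl39l was higher in both HLU libraries than in both Ctrl libraries in these 2 skeletal types, which held under 100 cells in each HLU library. This difference was not tested. The chondrocyte-like cells had a median of 1710 UMIs in HLU replicate 1 against 9490 to 11420 in the other libraries. The clusters joined as mesenchymal stromal-like cells were mixed in other proportions in Ctrl and HLU. Rpl3l was highest in precursor B cell-like cells, with 20.4, 34.6 and 26.3 per 1000000 UMIs in the 3 libraries with at least 20 such cells, a value that rests on 27 UMIs. Mature neutrophil-like cells followed at 7.35, 9.49, 6.91 and 8.65 per 1000000 UMIs, with a total of 204 UMIs.

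The share of ribosomal protein genes differed widely between cell types. T cell-like cells held the highest share at 31.1% ± 2.9 (SD, n = 4 libraries), and mature neutrophil-like cells one of the lowest at 4.57% ± 1.52. Basophil-like cells stood at 28.5% ± 4.3, granulocyte progenitor-like cells at 27.0% ± 3.3, precursor B cell-like cells at 26.1% ± 4.2 (n = 3) and B cell-like cells at 24.6% ± 1.7. Each of these 5 types lay above all neutrophil stages past the progenitor in every library. Dendritic cell-like cells followed at 20.2% ± 3.7 and endothelial-like cells at 16.4% ± 1.4 (n = 2, both Ctrl libraries). The HLU libraries, with only 12 and 18 endothelial-like cells, had 11.6% and 12.3%. Monocyte-like cells stood at 15.6% ± 3.1, chondrocyte-like cells at 15.5% ± 1.1 and mesenchymal stromal-like cells at 15.1% ± 1.3. Dividing immature neutrophil-like cells had 8.57% ± 0.97 and immature neutrophil-like cells 7.75% ± 1.38. Macrophage-like cells reached 20 cells in HLU replicate 2 only, where they had 4.42%. With putative doublets, their cluster had 4.46% in that library and 6.30% over all libraries. Erythroid-like cells, whose UMIs are mostly those of globins, had 3.12% ± 2.06 (n = 2, both HLU libraries). The places of endothelial-like, macrophage-like and erythroid-like cells thus rest on libraries of 1 group each. Between neighbours in this order the ranges over libraries overlapped, with 1 exception: the lowest mesenchymal stromal-like library, at 14.3%, lay above the highest library of dividing immature neutrophil-like cells, at 9.83%.

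**Figure D1:**
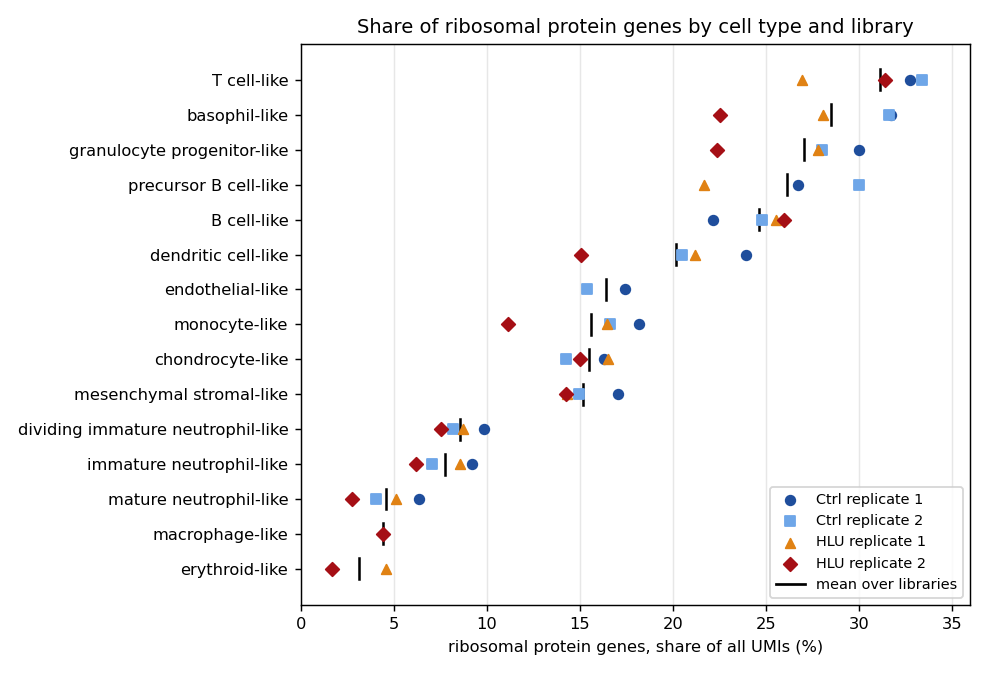
Share of UMIs from the 96 ribosomal protein genes (x axis, %) in each cell type (y axis), 1 point per library with at least 20 cells of the type and a black bar at the mean over libraries. Lymphoid, basophil-like and progenitor cells lie at the top, between 21.7% and 33.4%, and all neutrophil stages past the progenitor lie below 10%.

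The balance of the subunits moved far less than the share. UMIs of the small subunit divided by those of the large subunit and the stalk averaged 0.748 ± 0.014 in mesenchymal stromal-like cells and 0.924 ± 0.057 in T cell-like cells, the lowest and highest means among types with all 4 libraries. In neutrophil stages the ratio was 0.890 ± 0.012 in progenitors, 0.892 ± 0.071 in immature and 0.872 ± 0.075 in mature cells. The stages come from the same libraries, so this spread between libraries does not measure a change within them, which was not tested. HLU replicate 2 had the highest ratio in both later stages, 0.998 in immature and 0.978 in mature cells, against at most 0.870 and 0.854 in the other libraries.

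The first comparison asked how the ribosomal protein share changed as neutrophils matured. It fell at each step: in granulocyte progenitor-like cells, marked by the granule enzymes Elane and Mpo, it was 30.01%, 28.0%, 27.8% and 22.4% in the 4 libraries. In immature neutrophil-like cells, marked by Ltf, Camp and Ngp, it was 9.18%, 7.07%, 8.58% and 6.17%. In mature neutrophil-like cells, marked by Cxcr2 and Il1b, it was 6.34%, 4.05%, 5.11% and 2.77%. Every progenitor library lay above every immature library, and within each library the immature cells lay above the mature cells, although the highest mature library, at 6.34%, overlapped the lowest immature library, at 6.17%. This overlap came with cluster 7 of the mature type, whose shares were 9.37%, 5.99%, 7.31% and 3.18%. Without that cluster the mature shares were 4.53%, 3.62%, 4.32% and 2.72%, all below every immature library.

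The progenitor share was 3.27, 3.96, 3.24 and 3.63 times the immature share in the same 4 libraries (mean 3.52 ± 0.34), and the immature share was 1.45, 1.75, 1.68 and 2.22 times the mature share (mean 1.77 ± 0.33). In percentage points, the share fell by 19.3 and then by 3.18, each time in 4 of 4 libraries. The two-sided exact permutation test that swaps the stages within libraries gave p = 0.13 for both steps, the smallest value that 4 libraries allow. Granule and haemoglobin genes took 33.5% to 44.9% of all UMIs in immature cells, 12.0% to 30.3% in mature cells and 10.8% to 12.6% in progenitors. With these genes left out of the denominator, the falls were 18.3 and 6.74 points, so the second step was more than 1.5 times as large on that scale. Cells also held fewer UMIs at later stages, with a median of 12880 to 26136 per cell in progenitors and 1939 to 3614 in mature cells, and the median cell went from 3690 to 5941 UMIs of ribosomal protein genes to 86 to 100.

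A finer order of the neutrophil clusters was also made, with cells that the stage comparison left out. The 17019 cells of 11 neutrophil clusters were ordered by diffusion pseudotime from the progenitors and split into 10 bins of equal size. Beside the stages compared, they held the dividing immature cells and the unnamed clusters 14 and 2. The share over all libraries was 23.4% in the first bin, where Elane and Mpo were highest, and 9.002% in the second, where the division marker Mki67 was highest. It was 8.10%, 4.99% and 4.21% in the next bins, through which the granule genes Camp and Ltf gave way to Retnlg and Mmp8. Cells of unnamed clusters were 50.6% of the fourth bin and 69.7% of the fifth. From the sixth to the tenth bin the share over all libraries lay between 3.81% and 4.17% while Il1b kept rising. The share fell at 5, 5, 6 and 8 of the 9 steps in the 4 libraries, and after the fifth bin every library rose again at 1 step or more, HLU replicate 2 at the last step only. From the seventh to the tenth bin both Ctrl libraries and HLU replicate 1 rose at each step, from 5.23%, 3.74% and 4.69% to 6.29%, 4.31% and 5.35%. HLU replicate 2, the lowest library, held 427 cells of the sixth bin and 724 of the tenth. The order was built without ribosomal protein genes.

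**Figure D2:**
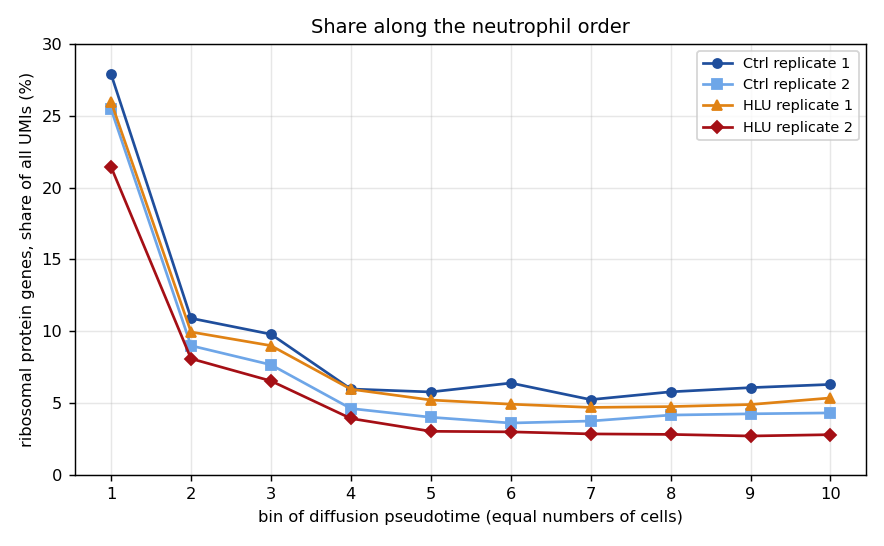
Share of UMIs from ribosomal protein genes (y axis, %) in 10 bins of equal cell number along diffusion pseudotime from granulocyte progenitors to mature neutrophils (x axis), 1 line per library. The steepest fall was between bins 1 and 2, from 21.4% to 27.9% down to 8.09% to 10.9%. From bin 5 on the changes were small beside this, and between bins 7 and 10 every line but that of HLU replicate 2 rose.

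Gene by gene, the fall was shared by nearly all ribosomal proteins at both steps. Counts were summed per library and stage and tested with edgeR, which scales each sum to the other genes, so that a gene is called when its adjusted p (Benjamini-Hochberg over all genes tested) is under 0.05. From progenitors to immature cells 91 of the 96 genes passed edgeR's filter on low counts, 80 fell and 6 rose, against 33.1% of all 9247 genes tested called lower and 32.5% called higher. From immature to mature cells 92 passed, 81 fell and 5 rose, against 27.8% of 8611 genes called lower and 27.1% called higher. The median log2 fold change of the genes tested was -1.14 and -0.90, beside 0.01 and 0.01 over all genes. The immature libraries enter both comparisons, so the 2 steps are not independent of each other.

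Both subunits took part in both steps. At the first step all 43 large subunit genes and 29 of 31 small subunit genes fell, with medians of -1.14 and -1.36, and at the second step 42 and 30 fell, with medians of -0.93 and -0.96. The 3 stalk genes fell at both steps: Rplp0 by 1.28 and 1.37, Rplp1 by 1.73 and 0.51 and Rplp2 by 1.26 and 0.71 on the log2 scale, with edgeR adjusted p between 4.34e-05 and 0.0496. Of the 77 ribosomal proteins without paralogs, 74 fell at both steps, and the exceptions were Rps27, Rps9 and Rpl37. Over all genes tested, 33.1% were called lower at the first step and 27.8% at the second. The share of all genes that fell at both steps was not counted.

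**Figure D3:**
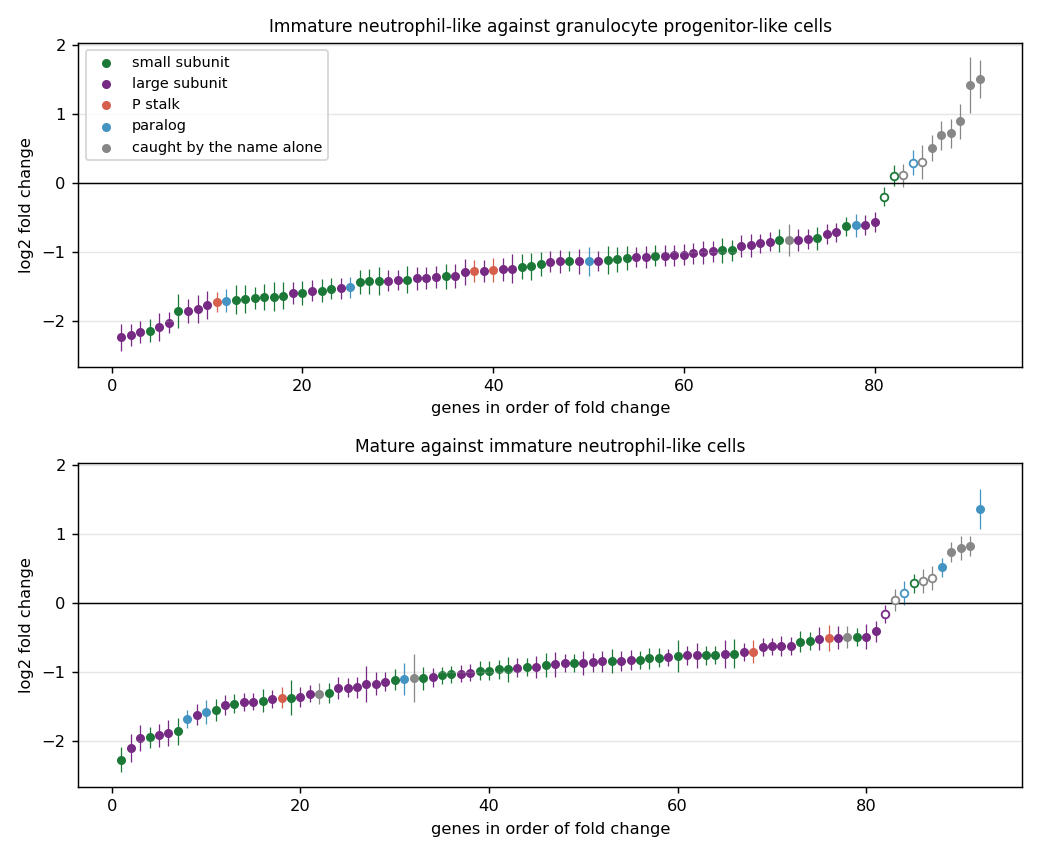
Log2 fold change (y axis) of each gene tested, in order of its value (x axis), for immature against progenitor cells (top) and mature against immature cells (bottom), with bars of 1 SE from edgeR. Filled points passed the test and open points did not, and nearly all subunit and stalk genes lie below 0 while most points above 0 are kinases or paralogs.

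Rpsa, a small subunit protein also known as a laminin receptor, had the largest fall from immature to mature cells. Its normalised counts per 1000000 (CPM) were 1946, 1307, 1675 and 1374 in the immature libraries and 562, 278, 349 and 197 in the mature libraries, without overlap, a log2 fold change of -2.27 ± 0.18 (SE; edgeR adjusted p = 2.56e-05). Rpl10a, a protein of the L1 stalk, went from 520, 365, 463 and 456 to 173, 104, 97.9 and 65.9 CPM, also without overlap, a log2 fold change of -2.11 ± 0.20. Rpl3, which lies near the site of peptide bond formation, Rps4x and Rpl32 followed with -1.96, -1.95 and -1.92. The levels of Rpl3 were low beside those of Rps4x and Rpl32 already in immature cells, at 296 to 410 CPM against 916 and more.

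From progenitors to immature cells the order of genes was a different one at the top. Rpl36a fell the most, from 2190, 1922, 1791 and 1160 CPM to 418, 315, 358 and 370, a log2 fold change of -2.24 ± 0.20 (SE; edgeR adjusted p = 4.30e-05). Rpl14, Rpl12 of the stalk base, Rps2 and Rpl10a followed with -2.21, -2.16, -2.15 and -2.10. Rpl10a was the only gene among the 5 largest falls of both steps. HLU replicate 2 stood apart at several of these genes: Rpl12 had 1883 CPM in its progenitors against 954 to 1161 in the other libraries, and Rps2 had 2307 against 4476 to 6202.

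Rps27, a zinc-finger protein of the small subunit, was called at neither step, on counts scaled to other genes that do not read molecules per cell. It had 2011, 1981, 1899 and 1531 CPM in progenitors and 1736, 1664, 1671 and 1377 in immature cells (log2 fold change -0.20 ± 0.14, edgeR adjusted p = 0.235). From immature to mature cells, where the 2 stages were normalised anew, it went from 1497, 1431, 1436 and 1188 to 1950, 1762, 1853 and 1255 (0.28 ± 0.13, edgeR adjusted p = 0.0989). Neither step passed the test, although the first was downward and the second upward in 4 of 4 libraries. Its window above holds the CTTTC motif more than once.

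Rps9, which sits at the mRNA entry of the small subunit, did not pass the test at the first step (log2 fold change 0.10 ± 0.15) and fell at the second (-0.55 ± 0.13, edgeR adjusted p = 0.00653). Rpl37 of the large subunit had the reverse order, a fall of 1.25 at the first step and -0.16 ± 0.13 at the second, which did not pass (edgeR adjusted p = 0.310). Genes with and without CTTTC in the window had like medians at both steps, -1.22 and -1.26 at the first and -0.92 and -0.97 at the second (16 and 41 genes).

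Among the paralogs, Rpl22l1, the paralog of Rpl22, fell at both steps (-1.72 and -1.69), as did Rpl36al (-1.52 and -1.58) and Rps27l, a known p53 target (-1.14 and -1.10). Rpl7l1 fell at the first step (-0.62) and was at 0.14 at the second, which did not pass. Rps27rt, a retrogene copy of Rps27, was at 0.29 at the first step without passing the test and rose at the second, from 35.5, 44.8, 39.2 and 21.01 to 50.5, 59.9, 66.3 and 26.9 CPM, higher in 4 of 4 libraries with stages that overlapped through HLU replicate 2 (0.52 ± 0.14, edgeR adjusted p = 0.0110). Its sequence is close to that of Rps27, so reads of the pair may have been split between them. Rpl3l had the largest rise of the second step, from 1.90, 1.71, 2.88 and 5.77 to 6.38, 8.93, 5.83 and 10.7 CPM, stages that did not overlap, although the highest immature and the lowest mature library lay next to each other (1.36 ± 0.29, edgeR adjusted p = 0.00382).

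The genes caught by the name alone, which encode no ribosomal proteins, moved in both directions. At the first step 6 of the 9 tested rose and 1 fell, and at the second step 3 rose and 3 fell, beside 32.5% and 33.1% and then 27.1% and 27.8% of all genes called higher and lower. Rps6ka4, which encodes the kinase MSK2, rose at both, by a log2 fold change of 1.505 ± 0.27 and 0.80 ± 0.17, and Rps6ka2 (RSK3) by 0.89 and 0.83. Rps6ka1 (RSK1) rose at the first step (0.72) and fell at the second, from 46.0, 64.3, 74.6 and 140 to 13.8, 29.4, 28.1 and 66.5 CPM (-1.32 ± 0.15, edgeR adjusted p = 0.000147). Rps6kb1, the S6 kinase itself (S6K1), did not pass at either step, at 0.10 and 0.05. Rps19bp1 fell at the first step only (-0.83).

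The other genes of the pathway are given as whole lists, to be read against the same shares of all genes, 32.5% called higher and 33.1% lower at the first step and 27.1% and 27.8% at the second. Of the mitochondrial ribosomal proteins, which serve the separate ribosome inside mitochondria, 64 of 77 tested fell and 2 rose at the first step and 52 of 73 fell and 3 rose at the second, with medians of -1.33 and -0.82. Of 27 ribosome assembly factors tested at each step, 22 fell and 0 rose at the first, with a median of -2.26, and 13 rose and 1 fell at the second, with a median of 0.72. Of 19 translation factors and other TOP mRNAs, all tested, 9 fell and 3 rose and then 10 fell and 2 rose. Of 16 regulators of mTORC1 and TOP mRNAs, all tested, 5 rose and 2 fell and then 6 rose and 2 fell, so their share called higher at the first step was near that of all genes. Of 3 ribosomal proteins that carry other names, all tested, 2 fell and 0 rose at each step, with medians of -0.88 and -0.84. Single genes among them were looked up afterwards. The scaffold protein gene Rack1 (-1.48 and -0.84) fell at both steps, while Fau, a fusion to a ubiquitin-like protein, was at -0.04 and -0.05 without passing.

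The next comparison asked which genes moved apart from the rest of the set, with each library scaled to the total of the 96 genes instead of to all genes. On that scale 17 of 92 genes rose and 21 fell from immature to mature cells, against 64.0% of 8401 genes called higher and 6.44% called lower. The high background follows from the scale, as the median of all genes moved to 0.95 on the log2 scale once the ribosomal protein total was held level. Among the 77 ribosomal proteins without paralogs 8 rose, 19 fell and 50 did not pass.

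The counts are those of the second step, and the new scale moves each gene by nearly the same amount. The order of genes was therefore set by that step and is no further result. The largest falls within the set were those of Rpsa (-1.34), Rpl10a (-1.17), Rpl3 (-1.03), Rps4x (-1.02) and Rpl32 (-0.99). Rpsa went from 21488, 18111, 20973 and 17362 UMIs per 1000000 UMIs of the set to 10221, 7310, 8085 and 5721, so the stages did not overlap. At the other end were Rpl3l (2.34), Rps6ka2 (1.75), Rps6ka4 (1.74), Rps6ka3 (1.68) and Rps27rt (1.45), and among ribosomal proteins without paralogs the largest rises were those of Rps27 (1.22 ± 0.15, edgeR adjusted p = 7.25e-05) and Rpl37 (0.77 ± 0.17). Rps27 went from 16533, 19832, 17979 and 15002 to 35465, 46324, 42934 and 36502 on that scale, so the stages did not overlap. Rplp0 fell within the set (-0.44), while Rplp1 (0.42) and Rplp2 (0.22), its partners in the stalk, did not pass.

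**Figure D4:**
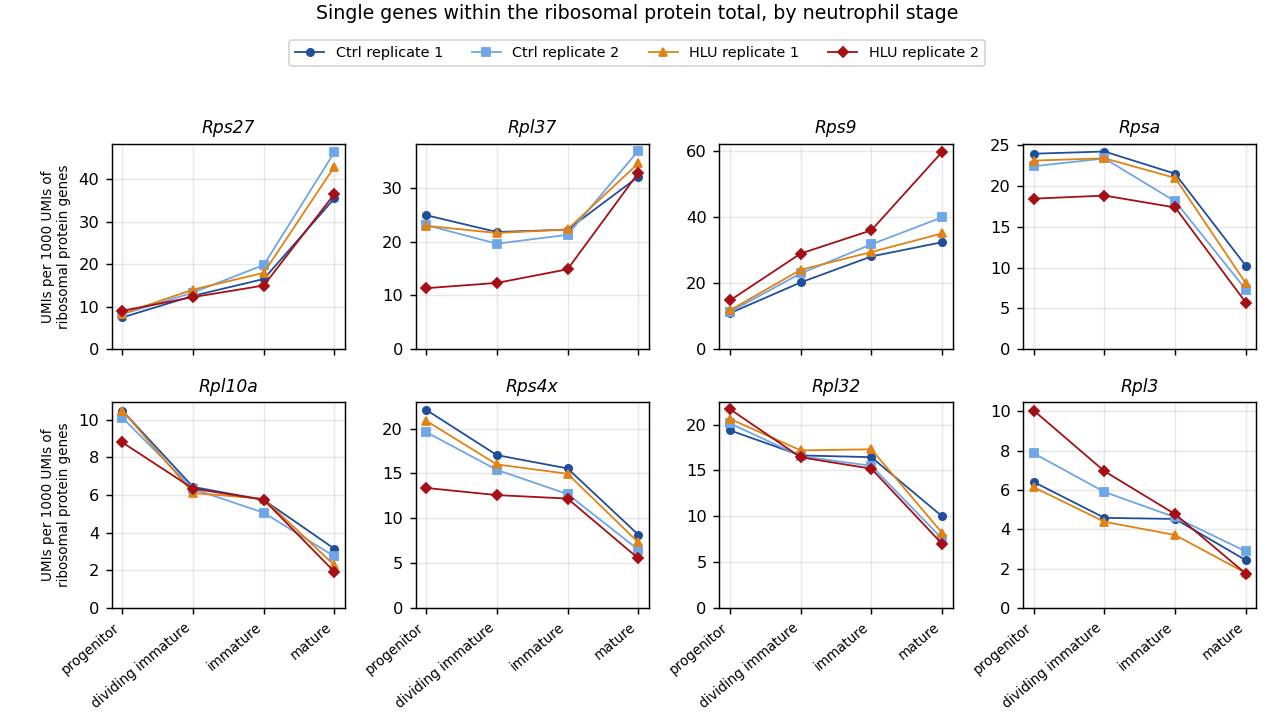
UMIs of 8 ribosomal protein genes per 1000 UMIs of the set (y axis, from 0) in 4 neutrophil stages (x axis), 1 line per library. Rps27 and Rpl37 take a larger part of the set in mature cells, Rps9 climbs from the progenitors on, and Rpsa, Rpl10a, Rps4x, Rpl32 and Rpl3 take a smaller part, with HLU replicate 2 apart for Rpl37, Rps9 and Rps4x in progenitors.

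The makeup of the set was also compared across all named cell types. Among the 88 genes that reached 1 per 1000 UMIs of the set in some type, the mean in the highest type was a median of 2.42 times that in the lowest, with 30 genes under 2-fold and 25 at 3-fold or more. The widest ranges were those of genes that are no ribosomal proteins or are paralogs: Rps6ka1, from 8.48 per 1000000 UMIs of the set in endothelial-like to 1026 in immature neutrophil-like cells, Rps6ka4 (18.95 in progenitors to 2052 in macrophage-like cells), Rps6ka2 (13.4 in B cell-like to 1088 in mature neutrophil-like cells), Rpl7l1 and Rps19bp1. These high ends lay in types where the set itself had a low share of UMIs, between 4.42% and 7.75%. The low ends of Rps6ka1, Rpl7l1 and Rps19bp1 rest on 7, 1 and 2 UMIs. The high ends of Rps6ka4, Rpl7l1 and Rps19bp1 were macrophage-like values of HLU replicate 2 alone, a library set apart below. Endothelial-like values came from Ctrl alone and erythroid-like values from HLU alone. Type and library cannot be told apart in these values.

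Among ribosomal proteins without paralogs, looked up after their values were seen, Rplp1 ranged the most, 6.003-fold. It went from 6405 per 1000000 UMIs of the set in immature neutrophil-like cells to 38448 in macrophage-like cells, read in HLU replicate 2 alone. For Rplp1 that library lay at least 1.5-fold above the others in 4 of the 11 types with all libraries. Rps27 ranged 4.86-fold, from 8292 in progenitors to 40306 in mature neutrophil-like cells, and Rpl12 4.48-fold, from 2526 in mature neutrophil-like to 11310 in T cell-like cells. The T cell-like libraries had 7811, 10848, 8966 and 17616 for Rpl12, so HLU replicate 2 raised that mean. Rps9 ranged 4.38-fold and Rpl3 4.30-fold. Both had endothelial-like cells, read in Ctrl alone, at 1 end and mature neutrophil-like cells at the other, in opposite directions. The steadiest were Rps3a1 (1.304-fold), Rpl23 (1.36-fold), Rpl19 and Rpl27a (1.398-fold each) and Rpl29 (1.47-fold).

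Before the groups are compared, HLU replicate 2 has to be set apart. This check was added after the values were seen. For each of the 77 ribosomal proteins without paralogs and each of the 11 types with at least 20 cells in every library, it was counted how often 1 library lay at least 1.5-fold above or below all the other 3 on the scale of the set. For both Ctrl libraries and HLU replicate 1 the count was 0 of 77 in each of the 11 types. For HLU replicate 2 it ran from 5 genes in mesenchymal stromal-like to 27 in granulocyte progenitor-like cells.

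Over the 11 types, HLU replicate 2 lay apart at 37 genes in some type and at 9 of them in at least 6 types. Rpl39 and Rps28 lay below the other libraries in all 11 types, and Rpl23a lay above them in all 11. In mature neutrophil-like cells Rpl39, one of the smallest ribosomal proteins, had 13381, 12949, 12080 and 5891 UMIs per 1000000 UMIs of the set, and in B cell-like cells 18723, 19262, 19716 and 10705. Rpl23a, which lies at the exit of the peptide tunnel, had 2617, 3429, 3592 and 5940 in mature neutrophil-like and 3179, 3336, 3224 and 5215 in B cell-like cells. In both types HLU replicate 2 lay outside the range of the first 3 libraries, while the other HLU library sided with the Ctrl libraries. The first 3 lay close together except for Rpl23a in mature neutrophil-like cells, where they ran from 2617 to 3592.

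This was no property of ribosomal proteins alone. Among genes outside the set and not mitochondrial, with at least 100 UMIs in every library, HLU replicate 2 lay apart by the same measure for 12.9% to 45.8% of genes in the 11 types, and each other library for 0% to 12.5%. HLU replicate 2 also had the most UMIs and the fewest barcodes under 1000 UMIs (267 against 2143 to 2585). The sources used here name no difference in the handling of this mouse, and with 2 mice per group its condition and whatever else sets it apart cannot be told apart.

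The last comparison asked whether unloading changed ribosomal protein genes. No gene of the set passed the test in any of the 4 types compared, with 92 genes tested in mature and immature neutrophil-like and monocyte-like cells and 90 in B cell-like cells. Over all genes, edgeR called 0.0227% higher and 2.21% lower in mature neutrophil-like cells, 0% and 1.39% in immature neutrophil-like cells, 0% and 0.0781% in monocyte-like cells and 3.56% and 14.2% in B cell-like cells. The counts at an unadjusted edgeR p under 0.05 were 1, 1, 0 and 2 genes of the set in these types. Over all genes tested, the counts at that threshold were 739 of 8807, 959 of 8719, 464 of 10248 and 3000 of 9689. DESeq2 also called 0 genes of the set in each type, against 297, 183, 101 and 1524 over all genes. The median log2 fold change of the set was -0.32, 0.03, -0.35 and -0.12 in the same order. With HLU replicate 1 left out, so that HLU replicate 2 alone stood against the Ctrl libraries, 15, 21, 51 and 4 genes of the set were called (16.3%, 22.8%, 55.4% and 4.4% of those tested). In the same fits 28%, 29.1%, 36.3% and 18.6% of all genes tested were called, so the share of the set was below that of all genes in 3 of the types and above it in monocyte-like cells, where 44 of the 51 were lower in HLU replicate 2.

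Rps6ka1 had the smallest or one of the 3 smallest p-values in all 4 types and pointed upward in each. Its CPM in the Ctrl and then the HLU libraries were 14.98 and 30.5 against 28.8 and 68.0 in mature neutrophil-like cells, 44.4 and 60.4 against 71.9 and 134.7 in immature ones, 21.6 and 24.1 against 29.3 and 59.7 in monocyte-like cells and 5.26 and 8.95 against 18.05 and 20.5 in B cell-like cells. The groups overlapped in mature neutrophil-like cells and not in the other 3 types, and HLU replicate 2 was the highest library in each. The log2 fold changes were 1.08 ± 0.56, 0.98 ± 0.40, 0.96 ± 0.41 and 1.39 ± 0.42, with edgeR adjusted p of 0.667, 0.439, 0.809 and 0.0533, so none passed.

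The ribosomal proteins and paralogs with the smallest p-values are given next. In mature neutrophil-like cells Rpl3 was at 145 and 114 against 78.5 and 61.0 CPM (-0.89 ± 0.36, edgeR adjusted p = 0.588) and Rpl22l1 at 120 and 116 against 80.6 and 58.9. In immature cells Rps6, the substrate of the S6 kinases, was at 258 and 238 against 269 and 668 (0.92 ± 0.48, edgeR adjusted p = 0.496), with HLU replicate 2 far above the other 3 libraries, and Rpl3l was at 1.84 and 1.60 against 2.78 and 5.54 (1.25 ± 0.59, edgeR adjusted p = 0.471). In monocyte-like cells Rpl36 was at 1715 and 1608 against 1324 and 947, and Rps27rt at 59.7 and 58.8 against 50.7 and 29.9. In B cell-like cells Rpl22l1 was at 555 and 651 against 413 and 351 (-0.66 ± 0.28, edgeR adjusted p = 0.149) and Rpl37 at 4509 and 4585 against 3573 and 2747. These genes, like Rps6ka1, were picked for their small p-values, a choice that favours groups without overlap. That the HLU libraries did not overlap the Ctrl libraries at them is therefore no separate result, and none passed the test.

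**Figure D5:**
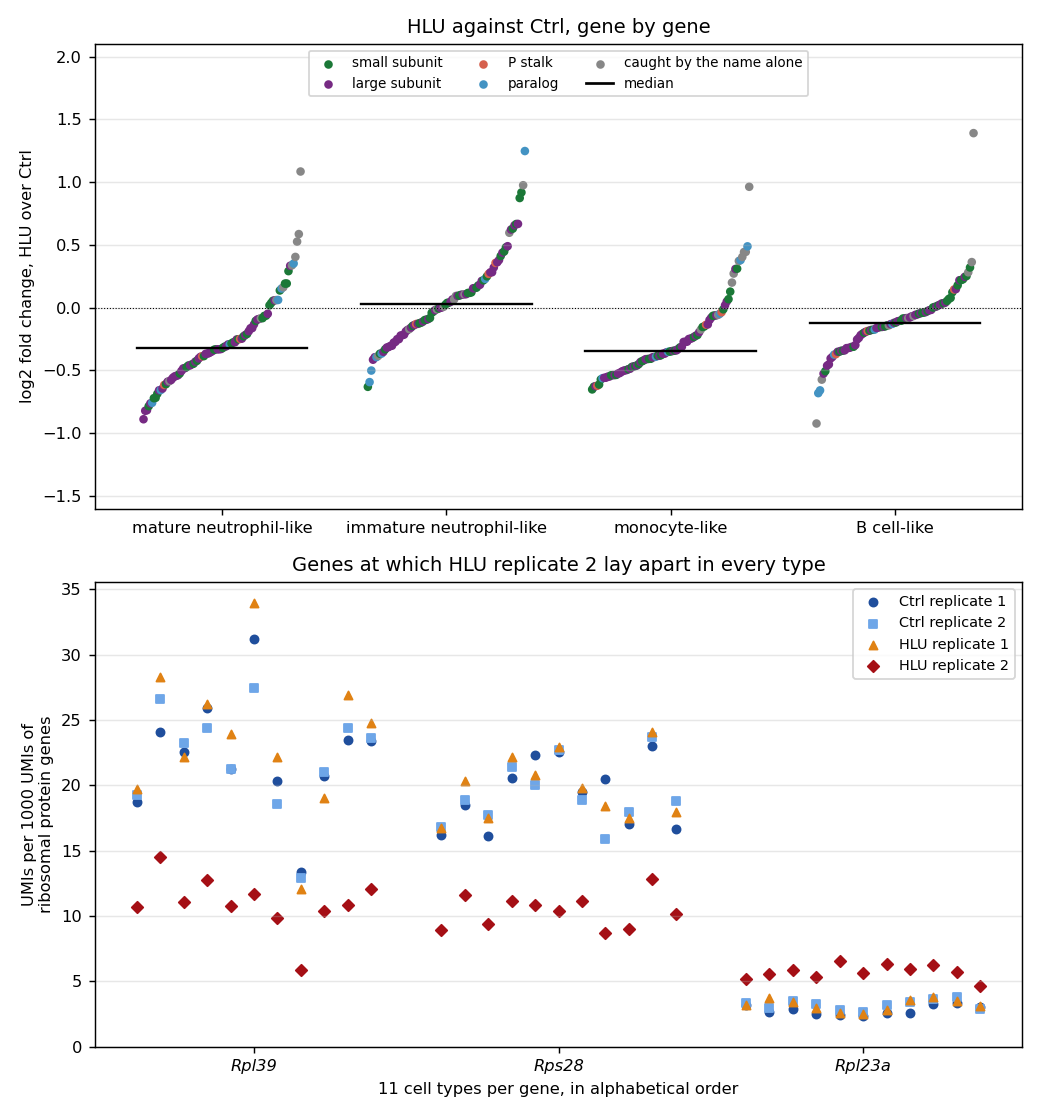
Top: log2 fold change of each gene tested, HLU over Ctrl (y axis), in 4 cell types (x axis), with a bar at the median. No gene passed the test and the highest point of 3 of the types is Rps6ka1. Bottom: UMIs of 3 genes per 1000 UMIs of the set (y axis, from 0) in 11 cell types side by side for each gene (x axis), 1 point per library, where HLU replicate 2 lies below the others for Rpl39 and Rps28 and above them for Rpl23a.

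The share of UMIs from ribosomal protein genes was lower on average in HLU in most types. Of the 11 types with 20 cells in each library, the HLU mean was lower in 9 and the libraries of the groups did not overlap in 6, of which 5 were lower in HLU. HLU replicate 2 was the lowest library in 8 types, and without it the mean stayed lower in 8. In monocyte-like cells, the type the study centred on, the share was 18.2% and 16.6% in Ctrl and 16.4% and 11.1% in HLU, a difference of -3.62 points without overlap (two-sided exact permutation p = 0.33, the smallest that 2 against 2 allows), and -0.979 points without HLU replicate 2. The largest difference was that of basophil-like cells, with 31.7% and 31.6% against 28.1% and 22.5% (-6.37 points). T cell-like cells differed by -3.91 points, granulocyte progenitor-like cells by -3.92 and mesenchymal stromal-like cells by -1.69, all without overlap and all with an exact permutation p of 0.33. The last type joined clusters 10, 12 and 13. With putative doublets, they held 830 and 259, 582 and 380, and 485 and 361 barcodes in Ctrl. In HLU they held 14 and 31, 2 and 13, and 43 and 62. Their Ctrl shares were 22.9% and 18.6%, 14.3% and 12.8%, and 16.2% and 15.4%. The part of this makeup in the difference was not tested.

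In mature neutrophil-like cells the share differed by -1.25 points and in immature ones by -0.752 (exact permutation p = 0.667 each), and the groups overlapped in both. Without HLU replicate 2 the first difference was -0.0768 and the second was 0.455, and without Ctrl replicate 1 they were -0.102 and 0.305. The clusters within each type mattered too: without cluster 7, whose shares were 9.37%, 5.99%, 7.31% and 3.18%, the mature difference was -0.561, and without cluster 15, which held 18 cells of HLU replicate 2 against 201 to 303 of the other libraries, the immature difference was -1.29. Granule and haemoglobin genes took 30.3% of UMIs in the mature cells of HLU replicate 2 against 12.0% to 16.2% in the other libraries. Its median mature cell had 3614 UMIs against 1939 to 2419. With granule and haemoglobin genes left out of the denominator, the share differed by -0.966 points in mature and by -0.103 in immature cells. The part of either value in the lower share was not tested beyond this.

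B cell-like cells went the other way, with 22.2% and 24.8% in Ctrl and 25.6% and 26.0% in HLU, 2.28 points higher without overlap (exact permutation p = 0.33). Their median log2 fold change over the set had the other sign, -0.12, and the cause of this was not tested. The type was made of 2 clusters with opposite values. In cluster 6, with Igkc and Ms4a1 among its leading genes, the share was 26.3% and 28.9% in Ctrl and 23.9% and 25.6% in HLU, -2.87 points, and in cluster 20, with Irf4, Il2ra and Cd83 among its leading genes, it was 20.5% and 21.7% against 30.5% and 27.7%, 8.01 points. Cluster 20 held 51.8% and 36.4% of the B cell-like cells of the Ctrl libraries but 14.9% and 10.8% of those of the HLU libraries. In each cluster the groups did not overlap, and the difference between the 2 effects was 10.9 points (exact permutation p = 0.33, the smallest possible).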

How the data were processed

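The authors deposited raw UMI counts per gene and barcode for each of 4 libraries, made with the 3′ kit v3.1 and Cell Ranger 6.0.0 on the mm10 reference 3.0.0, and the submitters' processing notes also name Seurat 4.1.0. The counts are not normalised. Barcodes with 1000 to 40000 UMIs and at most 10% mitochondrial UMIs were kept. Putative doublets (Scrublet, expected rate 0.8% per 1000 cells) were left out. The libraries were joined with Seurat 5.3.0 (anchors, 2000 variable genes without the 96 genes and mitochondrial genes, 50 components, resolution 1). Clusters were named from marker genes when at least 3 markers were raised. The naming thresholds were set after the clusters were seen, and the members and gene lists were chosen with earlier results of these data known.

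Counts were summed per cell type and library where a library held at least 20 cells. The share of UMIs was compared over libraries with two-sided exact permutation tests. Genes were tested with edgeR 4.0.16 (quasi-likelihood, with a library term for stages, Benjamini-Hochberg over all genes tested, 0.05) in R 4.3.3, and DESeq2 1.42.0 was an alternative. The edgeR fits were tested on simulated data. Pseudotime used scanpy 1.11.5 with 30 neighbours and 10 bins. Promoter windows came from RefSeq on GRCm38.p6.

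Genes named in the text are the 5 with the most UMIs, the 5 called genes with the largest change in each direction at each step and within the set, the 3 with the smallest p in each HLU comparison, the paralogs, stalk genes and kinases, genes at 0, and the 5 whose part of the set varies most between types. Other genes were looked up after their values were seen, among them Rack1, Fau, Rpl13a, Rpl31 and those at which HLU replicate 2 lay apart. Some genes are not reported here. The 3 exceptions to the fall were named for being so few. Each library is 1 mouse, so HLU against Ctrl rests on 2 mice per group.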

Additional observations from a re-analysis of the deposited data

Results flagged for a closer look

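The HLU minus Ctrl difference in the share of ribosomal protein UMIs was positive in B cell-like cells and negative in 5 other types. The groups overlapped in none of them, and the 5 types were picked for being lower in HLU without overlap. The HLU minus Ctrl difference of B cell-like cells lay above that of T cell-like cells by 6.18 points, of basophil-like cells by 8.65, of granulocyte progenitor-like cells by 6.20, of mesenchymal stromal-like cells by 3.97 and of monocyte-like cells by 5.90. These differences between types were not tested. The clusters joined as mesenchymal stromal-like cells were also mixed in other proportions in Ctrl and HLU. The sign in B cell-like cells depended on the processing. It was negative as the median share per cell, with no integration and in cluster 6 alone (-2.87 points). Cluster 20 was also a smaller part of this type after unloading, and how much this shift in makeup adds to the total was not tested. Within the B cell-like cells, the HLU minus Ctrl difference in cluster 20 exceeded that in cluster 6 by 10.9 points, with opposite signs and no overlap (exact permutation p = 0.33, the smallest that 2 against 2 allows).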

How the results depend on the processing

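The fall of the share from progenitors to immature to mature cells kept its direction under all 16 and 17 alternatives, and without each replicate in turn it ranged from -20.3 to -18.7 points and from -3.30 to -3.09 points. The number of genes called, with a replicate left out, ranged from 79 to 87 at the first step and from 74 to 86 at the second, which went to 55 without the replicate block that pairs stages of 1 library. Over all genes tested, the fits at these ends called 4970 of 9095 and 6442 of 9086, then 3837 of 8793 and 5285 of 8477. Without the block it was 2298 of 8611, against 4727 of 8611 with it. Within the set the count of 38 went to 18 without the replicate block and ranged from 21 to 48 with each replicate left out, with 21 both without Ctrl replicate 2 and without HLU replicate 1. Over all genes tested, the main fit called 5919 of 8401 and that without the block 4201 of 8401. It was 5314 of 8466 without Ctrl replicate 2, 5306 of 8488 without HLU replicate 1 and 6255 of 8467 without HLU replicate 2. Of 450 refits of single genes named at the stages, 433 kept their call and 17 lost it.

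The HLU results depended more on single libraries. The share difference of immature cells turned to 0.305 without Ctrl replicate 1 and 0.455 without HLU replicate 2 (range -1.96 to 0.455). That of B cell-like cells turned to -0.701 as the median share per cell, -1.73 with no integration and -2.87 in cluster 6 alone (0.949 to 3.61 with a replicate left out). It ranged from -2.42 to -0.0768 in mature cells (-0.564 as the median per cell, -0.527 at resolution 2, -0.489 with no integration, -0.524 with members among the clustering genes and -0.561 without cluster 7) and from -6.27 to -0.979 in monocyte-like cells. With a replicate left out, the number of genes called ranged from 0 to 15 in mature, 0 to 21 in immature, 0 to 51 in monocyte-like and 0 to 4 in B cell-like cells, the high ends all without HLU replicate 1, where 28%, 29.1%, 36.3% and 18.6% of all genes were called. In B cell-like cells it was 2 with no filter on low counts, 1 with doublets kept, 2 with members among the clustering genes, 1 in cluster 20 alone and 1 with the replicate block. Over all genes tested, the same fits called 2699 of 16179, 1714 of 9915, 1960 of 9924, 2251 of 7537 and 1967 of 9689. The cluster subsets were chosen after seeing the data. The sample labels name no pairing between same-numbered Ctrl and HLU libraries. Deviations of these libraries correlated at 0.051, -0.010, 0.0053 and -0.038 over genes in the 4 types. With 2 libraries per group such values cannot show whether a pairing exists. Other clusterings gave 73.7% to 93.0% of cells the same name.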

Other observations

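Clusters that stayed unnamed carried ribosomal protein shares of their own. Cluster 14, with Fcnb as its leading gene, had 24.6%, 21.01%, 22.0% and 17.1% in Ctrl replicates 1 and 2 and HLU replicates 1 and 2. Cluster 2, with Retnlg and Mmp9 among its leading genes, had 5.10%, 4.08%, 5.12% and 3.26%. Cluster 19, led by genes of the endoplasmic reticulum such as Creld2 and Hspa5, had 303 and 139 barcodes in Ctrl and 2 and 1 in HLU, with shares of 21.2% and 19.5% in Ctrl. These shares include putative doublets.

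Coding lengths differed between the ribosomal proteins at which HLU replicate 2 lay below and above the other libraries. The coding length in GENCODE M21 had a median of 303 bases over the 14 genes that lay only below in some type, 4 of which were above the median of 468 bases over all 77 genes, 460.5 over the 22 that lay only above and 477 over the 40 that did neither. Across the 77 genes, which are not independent replicates, the Spearman correlation of coding length with the log2 ratio of a library to the others was 0.311 for HLU replicate 2, -0.418 for HLU replicate 1, -0.159 for Ctrl replicate 1 and -0.216 for Ctrl replicate 2. The cause was not tested.

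In monocyte-like cells all 28 ribosome assembly factors had a positive log2 fold change in HLU, with a median of 0.97, and 0 were called by edgeR. The same list was mostly negative elsewhere, with 7 of 27 positive in mature neutrophil-like, 8 of 26 in immature and 11 of 28 in B cell-like cells. The medians there were -0.28, -0.31 and -0.085. In monocyte-like cells HLU replicate 2 lay apart for 32.1% of genes outside the set, and its part in this value was not tested.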
